A study of Mus musculus with 2 samples.

Results

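De novo lipogenesis builds fatty acids from the carbon of sugars, and 10 of its genes were followed here in the open chromatin of mouse liver. They are the transcription factors *Srebf1* and *Mlxipl*, the lipogenic cofactor *Thrsp*, the enzymes *Acly* and *Me1* that supply acetyl-CoA and NADPH, the carboxylases *Acaca* and *Acacb*, the synthase *Fasn*, the elongase *Elovl6* and the desaturase *Scd1*. Every accessible region that the authors assigned to one of them, as the gene with the closest transcription start site (TSS), was taken once. This gave 41 of the 69549 distinct regions, of which 8 lay at promoters, with the centre within 1 kb of the TSS, and 33 lay farther away. Of the 10 genes, 9 had a region and 8 had a promoter region. *Me1* had no region and *Acaca* had no promoter region under this assignment.

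In the liver, the pathway runs when carbohydrate is plentiful. Insulin raises the active form of SREBP-1c, a product of *Srebf1*, and glucose metabolites activate ChREBP, the product of *Mlxipl*, and both factors act on promoters of the enzymes that follow. Citrate leaving mitochondria is cleaved to acetyl-CoA, carboxylated to malonyl-CoA, condensed into palmitate with NADPH, and then elongated and desaturated before it is stored as triglyceride.

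ATAC-seq reads come from DNA that the Tn5 transposase can reach, so the reads on a region measure how open its chromatin is. One library came from livers of *Mettl3* flox/flox mice, which carry the floxed alleles without Cre, and the other from *Mettl3*-HKO mice, which carry the same alleles with Alb-Cre+/-, a recombinase driven by the albumin promoter in hepatocytes. METTL3 is the catalytic subunit of the m6A RNA methyltransferase. All mice were C57BL/6, 8 weeks of age and fed normal chow, and 4 mice were pooled for each library. Feeding state at sacrifice and sex are not given in the sources used here. The flox/flox and the HKO library were single, so replicate error is unknown and all differences below are between those 2 libraries. The 95% intervals cover counting error only. Fewer nuclei of a cell type and less open chromatin per nucleus cannot be told apart in whole liver.

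The promoter stretches below are shown because regions of both libraries lay over these starts and their ratios were the largest, the smallest or, at *Srebf1* and *Mlxipl*, those of alternative starts. Each is the 250 bases before a RefSeq TSS on GRCm38.p6, written 5′ to 3′ on the strand of the gene, with capitals marking every match on either strand to a fixed set of short motifs. The sterol response element, bound by SREBPs, was searched as TCACNCCAC. The letters of the E-box, bound by ChREBP, USF and other factors of their class, were CACGTG. Those of the box bound by NF-Y were CCAAT. The GC box, bound by Sp1, was searched as GGGCGG. The letters used for the TATA box were TATAAA. Matches may overlap, as they do in *Fasn*. The *Fasn* stretch is chr11:120824548-120824797 on the minus strand, *Thrsp* chr7:97417551-97417800 on the minus strand, *Me1* chr9:86695915-86696164 on the minus strand and *Elovl6* chr3:129532136-129532385 on the plus strand. The intron 1 start of *Srebf1* is chr11:60210472-60210721 on the minus strand, and the starts of *Mlxipl* are chr5:135089640-135089889, upstream, and chr5:135106641-135106890, both on the plus strand.
Fasn: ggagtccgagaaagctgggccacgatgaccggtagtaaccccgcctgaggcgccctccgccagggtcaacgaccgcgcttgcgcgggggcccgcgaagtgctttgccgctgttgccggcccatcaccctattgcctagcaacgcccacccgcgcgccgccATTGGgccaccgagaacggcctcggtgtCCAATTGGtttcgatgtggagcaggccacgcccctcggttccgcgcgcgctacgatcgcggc
Thrsp: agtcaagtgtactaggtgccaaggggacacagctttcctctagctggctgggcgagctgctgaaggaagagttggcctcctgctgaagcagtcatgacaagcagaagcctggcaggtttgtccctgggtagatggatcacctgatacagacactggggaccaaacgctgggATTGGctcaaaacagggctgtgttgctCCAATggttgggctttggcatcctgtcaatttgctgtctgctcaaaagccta
Me1: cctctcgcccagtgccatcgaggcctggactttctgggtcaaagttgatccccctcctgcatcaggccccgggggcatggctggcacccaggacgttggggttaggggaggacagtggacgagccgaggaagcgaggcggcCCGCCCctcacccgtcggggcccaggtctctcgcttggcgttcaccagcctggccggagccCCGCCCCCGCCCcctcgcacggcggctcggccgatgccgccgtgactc
Srebf1 intron 1 start: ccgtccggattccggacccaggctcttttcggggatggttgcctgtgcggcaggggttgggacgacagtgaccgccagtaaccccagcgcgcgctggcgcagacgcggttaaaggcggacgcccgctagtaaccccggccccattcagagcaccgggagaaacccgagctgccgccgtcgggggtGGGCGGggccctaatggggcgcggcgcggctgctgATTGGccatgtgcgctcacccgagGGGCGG
Mlxipl upstream start: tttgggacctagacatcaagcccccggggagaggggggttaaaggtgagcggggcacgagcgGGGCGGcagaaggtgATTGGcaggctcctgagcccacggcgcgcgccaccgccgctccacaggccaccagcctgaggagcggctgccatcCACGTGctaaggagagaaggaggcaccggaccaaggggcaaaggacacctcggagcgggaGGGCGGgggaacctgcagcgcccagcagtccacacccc
Mlxipl start of the authors' TSS: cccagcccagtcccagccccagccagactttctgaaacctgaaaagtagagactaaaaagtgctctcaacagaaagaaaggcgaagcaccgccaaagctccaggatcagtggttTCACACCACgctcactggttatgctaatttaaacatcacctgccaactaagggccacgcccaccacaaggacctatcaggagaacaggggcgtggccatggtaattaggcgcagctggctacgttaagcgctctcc
Elovl6: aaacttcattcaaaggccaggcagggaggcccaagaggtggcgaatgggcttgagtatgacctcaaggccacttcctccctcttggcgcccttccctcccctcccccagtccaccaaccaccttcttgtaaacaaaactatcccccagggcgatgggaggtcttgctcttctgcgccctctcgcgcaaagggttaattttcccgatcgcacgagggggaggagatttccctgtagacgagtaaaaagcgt

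RefSeq windows, each reaching 250 bases before and 50 after a start, were held for 9 of the 10 genes, all but *Scd1*, and numbered 13. Of these, 10 were overlapped by an accessible region. The CCAAT box was found in 8 of the 13 windows and in 37.4% of the 32851 windows of all genes. *Fasn* had 3 matches to it, beginning at −90, −62 and −59 from the TSS, and *Thrsp* had 2, at −79 and −52. The GC box was found in 5 of the 13 windows and in 35.7% of all windows, and the start of *Me1* held 4 matches, of which the one at 16 lies past the printed bases. The sterol response element letters were in 1 of the 13, *Mlxipl* at −136, against 1.24% of all windows. The E-box was in 1 of the 13, the upstream start of *Mlxipl* at −98, against 7.15%. A TATA box was in 1 of the 13, a start of *Acacb* without a region, against 13.6%. A pair of CANNTG cores separated by 5 bases, a form of the carbohydrate response element that ChREBP binds, was in 0 of the 13 and in 0.767% of all windows. The *Elovl6* window held none of these letters.

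The libraries differed as a whole before any gene is considered. Of 52826202 reads of the flox/flox library 31.7% lay in regions, against 22.3% of 58038305 in the HKO library. The authors scaled reads to these library totals, as RPM. On that scale the log2 ratio (HKO over flox/flox) had a median of −0.56 over 14387 promoter regions and −0.27 over 55162 other regions. Scaling to the reads in regions raises every ratio by 0.51. Promoter regions of 8 of 8 hepatocyte markers were open, their median log2 ratio was −0.56, and their summed level went from 80.5 to 56.8 RPM. Of 8 endothelial markers 6 had a promoter region, 5 of them were at least 2-fold higher in the HKO library, where 4.07% of all promoter regions were, and their sum went from 2.57 to 6.51. These 5 regions were weak, with 11 to 25 counts in the flox/flox library and 39 to 89 in the HKO library. Weak promoter regions had higher ratios than strong ones, as given below, so the share over all promoter regions is not a like background. Among the other markers, 1 of 8 Kupffer cell genes had a promoter region, *C1qa* with 8 and 40 counts, while the defining genes *Clec4f* and *Adgre1* had none. The stellate list had 3 of 8, and its sum of 15.2 and 5.44 RPM followed *Reln* (13.1 and 2.29), while *Hgf* had 71 and 138 counts and *Col1a1* 37 and 43. The cholangiocyte list had 4 of 7, and its sum of 12.7 and 9.34 RPM followed *Sox9* (9.86 and 6.86), with 2 genes below 0 and 2 above, of which *Spp1* (13 and 34 counts) was at least 2-fold higher. The lymphocyte and adipocyte lists had 0 of 6 and 0 of 5. The part of cell composition in the ratios below was not tested.

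All 8 promoter regions of the lipogenic genes were less open in the HKO library. Their log2 ratios ran from −1.10 at *Fasn* to −0.55 at *Elovl6*, with a median of −0.91, and each interval lay below 0. Together they summed to 4970 counts for flox/flox and 2938 for HKO, a log2 ratio of −0.89 (−0.96 to −0.83). Of the 8, 2 were at least 2-fold lower, *Fasn* and *Thrsp*, or 25.0%, where 16.3% of all promoter regions were, and 0 were at least 2-fold higher, where 4.07% of all were. At 1.5-fold the lower count was 7, where 47.8% of all promoter regions passed. Since 83.9% of all promoter regions had a ratio below 0, the direction by itself does not set these genes apart. Against the median of all promoter regions, 7 of the 8 were lower and *Elovl6* was not. The intervals of *Acacb*, *Scd1* and *Elovl6* contained that median. All 8 stayed below 0 after scaling to the reads in regions and when ratios were centred on all regions, whereas centring on all promoter regions or on the strongest 10% of them put *Elovl6* above 0. MACS2 had called a peak in both libraries at each of the 8.

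**Figure D1:**
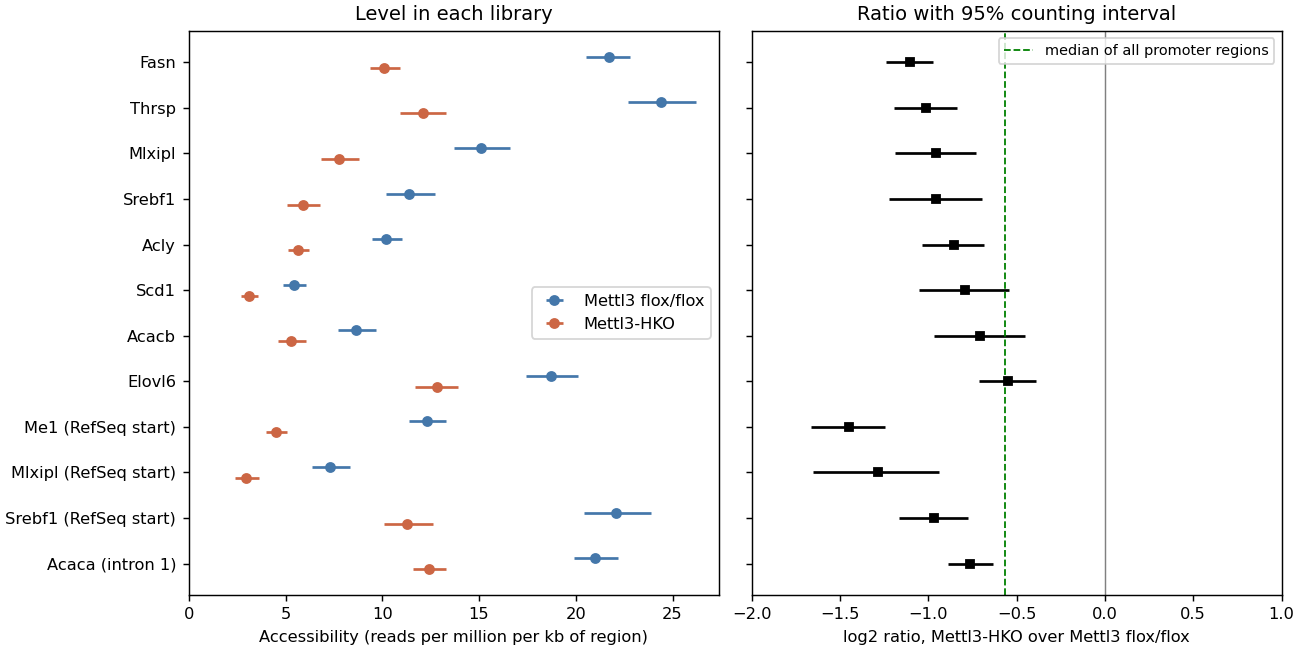
Accessibility in RPM per kb of region (left, points with exact 95% Poisson intervals) and log2 ratio (HKO over flox/flox) (right, squares with 95% counting intervals) for the 8 promoter regions, 3 regions over RefSeq starts that the authors assigned to another TSS, and the intron 1 region of *Acaca*. Every region was less open in the HKO library on the authors' scale. The dashed line marks the median of all promoter regions, −0.56, which the ratio of *Elovl6* alone among the 8 promoters does not fall below. The intervals of *Acacb* and *Scd1* also reach above it.

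The regulators come first. *Srebf1* encodes SREBP-1, a membrane-bound factor that is cleaved and then enters the nucleus. Its promoter region, chr11:60220285-60220841, reaches from intergenic DNA over exon 1 into intron 1, and had 336 counts in flox/flox and 190 in HKO liver, a log2 ratio of −0.95 (−1.22 to −0.70). The RefSeq windows of *Srebf1* mark 3 starts, and a region lay over each, whereas no region lay over the 5′ end of the RefSeq gene, chr11:60224186. The start upstream, in a region centred at −2241 bp from the TSS of the authors, chr11:60222404-60223288, went from 521 to 355 counts, a log2 ratio of −0.69 (−0.89 to −0.49). The start within intron 1, at chr11:60210251-60210772, which the authors assigned to an unnamed gene nearby, went from 609 to 342 counts, a log2 ratio of −0.97 (−1.16 to −0.77). It was the most open of the 3 starts per length, with 22.1 and 11.3 RPM per kb, against 11.4 and 5.88 at the authors' TSS.

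The largest difference at *Srebf1* lay upstream of the authors' TSS and near the 5′ end of the RefSeq gene, chr11:60224186. A region centred at −4299 bp from the TSS, chr11:60224709-60225098, fell from 257 to 64 counts, a log2 ratio of −2.12 (−2.56 to −1.74). Its level was 22.9% of that in the flox/flox library. A peak was called in that library only, and 848 of the 55162 regions outside promoters had a lower ratio. Farther out, at −9451 bp, the counts were 96 and 50, a log2 ratio of −1.06 (−1.60 to −0.57). Inside the gene, a region over exon 6 that the authors assigned to the same unnamed gene, chr11:60204988-60205398, went from 220 to 85 counts, a log2 ratio of −1.50 (−1.89 to −1.14), again with a peak in the flox/flox library only. All 7 regions of *Srebf1*, the 3 assigned elsewhere included, had ratios below 0, and their summed log2 ratio was −0.98 (−1.08 to −0.88).

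*Mlxipl* encodes ChREBP, the glucose-responsive partner of MLX. Its promoter region, chr5:135106631-135107175, ends in exon 1 and held 435 and 246 counts, a log2 ratio of −0.96 (−1.19 to −0.73). Next to it in intron 1, centred 1237 bp past the TSS, chr5:135107693-135108618 went from 849 to 396 counts, a log2 ratio of −1.23 (−1.41 to −1.06). This was the strongest region of the gene. A short region at 2261 bp went from 134 to 53 counts, a log2 ratio of −1.46 (−1.96 to −1.005), and kept a peak only in the flox/flox library. Upstream, the region at −5884 bp had 393 and 278 counts, a log2 ratio of −0.63 (−0.86 to −0.41). Inside the gene, 2 regions in intron 2 closer to another TSS had 85 and 83 counts, a log2 ratio of −0.17 (−0.62 to 0.28), and 145 and 115 counts, a log2 ratio of −0.47 (−0.84 to −0.11). The upstream RefSeq start, whose sequence with the E-box is given above, lay in chr5:135089478-135090032, a region that the authors assigned to *Vps37d*. It went from 214 to 96 counts, a log2 ratio of −1.28 (−1.66 to −0.94), but it was less open per length than the downstream start, with 7.30 RPM per kb in the flox/flox library against 15.1. Over its 7 regions *Mlxipl* had a summed log2 ratio of −0.97 (−1.07 to −0.87).

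*Thrsp*, also called Spot 14, is a small protein that promotes lipogenesis and is induced by thyroid hormone and carbohydrate. Its promoter was the most open of the 8 in the flox/flox library, with 24.4 RPM per kb, and had 12.1 in the HKO library. The region, chr7:97417350-97417928, held 747 and 406 counts, a log2 ratio of −1.01 (−1.19 to −0.84). Its upstream side carries a row of open regions with like ratios, as the plot by distance shows. At −1378 bp the counts were 607 and 325, a log2 ratio of −1.03 (−1.24 to −0.84). At −3582 bp they were 315 and 173, a log2 ratio of −0.997 (−1.28 to −0.73), with a peak in the flox/flox library only. At −6358 bp they were 853 and 546, a log2 ratio of −0.78 (−0.94 to −0.62). The 4 regions from −6358 bp to the promoter had overlapping intervals. Past the end of the gene, at 5406 bp, the counts were 554 and 429, a log2 ratio of −0.50 (−0.69 to −0.32), an interval that did not overlap that of the promoter.

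**Figure D2:**
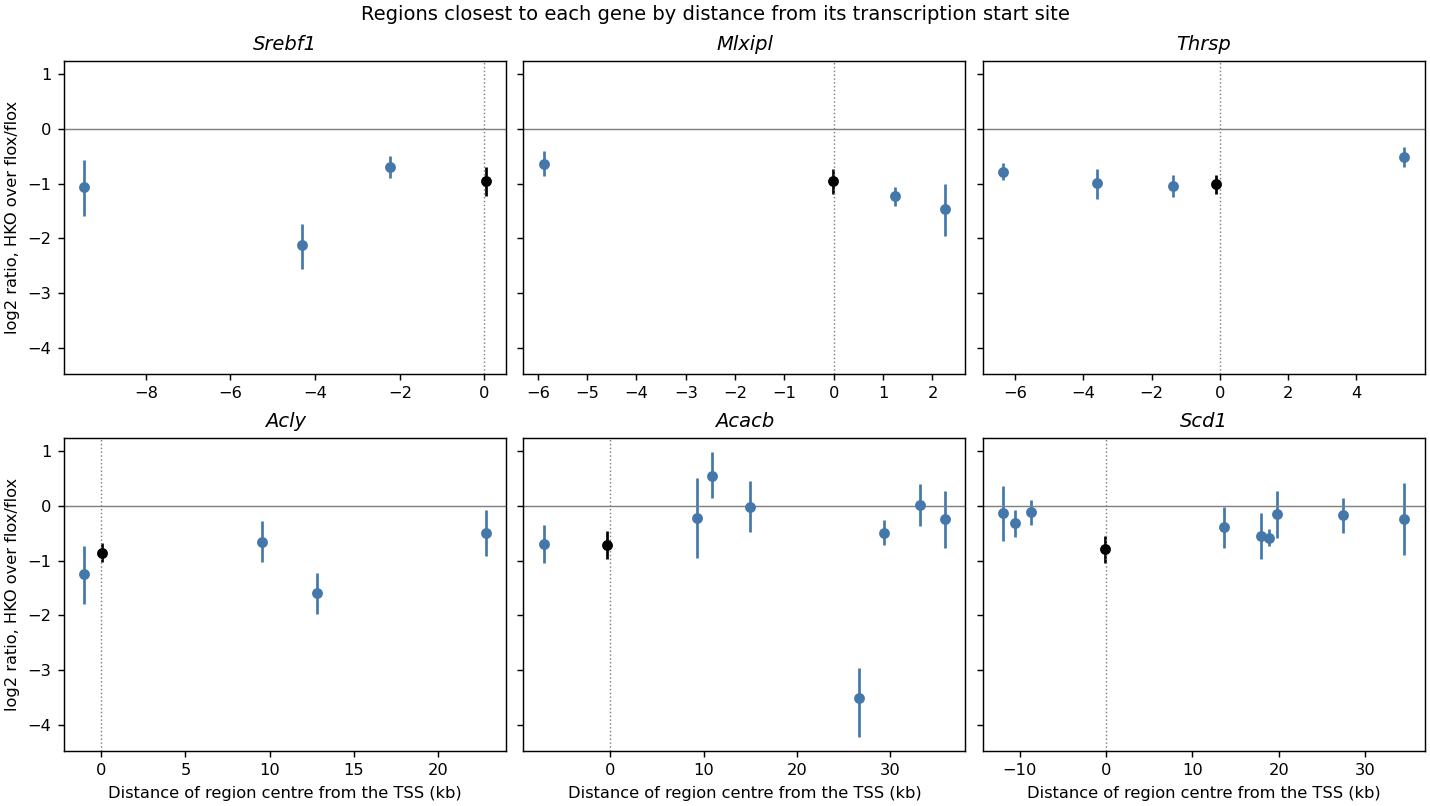
Log2 ratio (HKO over flox/flox) (vertical axis, bars are 95% counting intervals) against distance of the region's centre from the authors' TSS in kb for 6 genes, with promoter regions in black and other regions in blue. *Srebf1*, *Mlxipl*, *Thrsp*, *Acly* and *Scd1* lie below 0 at every plotted region on the authors' scale, with the distal regions of *Scd1* between −0.58 and −0.12. *Acacb* has 1 region at −3.51 among others from −0.70 to 0.55. Scaling to the reads in regions would add 0.51 to every point.

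Next in the pathway are the enzymes that provide acetyl-CoA and NADPH. *Acly*, ATP citrate lyase, cleaves cytosolic citrate to acetyl-CoA and oxaloacetate. Its promoter region, chr11:100527275-100528599, spans from intergenic DNA over the 5′ UTR into intron 1, and held 714 and 433 counts, a log2 ratio of −0.86 (−1.03 to −0.68). Just outside the promoter limit of 1 kb, at −1002 bp, a region held 98 and 45 counts, a log2 ratio of −1.24 (−1.80 to −0.74), whereas the member promoter region nearest that limit from within, that of *Acacb* at −339 bp, had a ratio of −0.70. An intron 8 region of *Acly*, chr11:100514984-100515418, differed most, with 229 and 83 counts and a log2 ratio of −1.59 (−1.98 to −1.23). The intron 6 and intron 11 regions had ratios of −0.65 (149 and 104 counts) and −0.49 (110 and 86 counts), both with intervals below 0.

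*Me1*, the cytosolic malic enzyme, returns oxaloacetate carbon as pyruvate and yields NADPH. The region over its RefSeq start, chr9:86695253-86696277, was assigned by the authors to an unnamed gene, ENSMUSG00000087466, whose TSS lies 304 bp from its centre, so the rule did not count it for *Me1*. It held 666 and 267 counts, a log2 ratio of −1.45 (−1.66 to −1.25), lower than at any of the 8 promoters, and 3.93% of all promoter regions had a lower ratio. The level went from 12.3 to 4.49 RPM per kb. Within the gene 8 further regions, all intronic, were closer to other starts. They ran from −0.86, with 47 and 28 counts in the last intron, to 1.40 (0.66 to 2.31), with 18 and 54 counts in intron 6 and a peak in the HKO library only. The latter was a weak region, at 0.36 and 0.948 RPM, and regions of like signal outside promoters had a median log2 ratio of 0.047.

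The carboxylases make malonyl-CoA, the committed step. *Acaca* encodes the cytosolic form that feeds Fasn, and *Acacb* the form at the outer mitochondrial membrane, whose malonyl-CoA restrains entry of fatty acids into mitochondria. *Acaca* had 1 region under the rule, in intron 1 at 6733 bp, chr11:84179272-84180439. The counts were 1297 and 840, a log2 ratio of −0.76 (−0.89 to −0.64), with levels of 21.0 and 12.4 RPM per kb. The RefSeq 5′ end of *Acaca* lay in a region that the authors assigned to *Tada2a*, chr11:84129160-84129832, with 283 and 158 counts and a log2 ratio of −0.97 (−1.27 to −0.69). Inside the gene 6 regions were closer to another TSS, and they went both ways. Those in intron 5 (109 and 57 counts), intron 45 (70 and 44 counts) and intron 3 (203 and 175 counts) had log2 ratios of −1.06, −0.79 and −0.35. Regions in intron 50 (9 and 43 counts) and intron 54 (14 and 65 counts), closest to *Aatf*, each had a log2 ratio of 2.00, and a second one in intron 3 (23 and 52 counts) had 1.01, all 3 with a peak in the HKO library only. These 3 were weak regions. When regions outside promoters were divided by mean signal into 10 classes of equal size, the intron 50 region fell in class 1, the weakest, whose median log2 ratio was 0.86, and the other 2 in class 3, whose median was 0.047.

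The *Acacb* promoter region, chr5:114145852-114146541, ends in the 5′ UTR and held 315 and 212 counts, a log2 ratio of −0.70 (−0.97 to −0.45). *Acacb* also had the lowest ratio of all 41 regions. In intron 2, at 26596 bp, chr5:114173011-114173253 went from 269 to 25 counts, a log2 ratio of −3.51 (−4.22 to −2.97), or 11.4-fold lower. Only 69 of the 55162 regions outside promoters had a lower ratio. A peak was called there in the flox/flox library only, and the level went from 21.0 to 1.77 RPM per kb. Its neighbours did not share this. The next region in intron 2, chr5:114175586-114176153, the strongest of the gene outside its promoter, had 361 and 283 counts, a log2 ratio of −0.49 (−0.72 to −0.26), and an intron 1 region, chr5:114157290-114157615, had 78 and 126 counts, a log2 ratio of 0.55 (0.14 to 0.98), the highest of the 41. Over 8 regions outside the promoter the median was −0.23. Without the intron 2 region the remaining 7 ran from −0.69 to 0.55.

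*Fasn*, fatty acid synthase, assembles palmitate from malonyl-CoA. It had a single region, chr11:120823735-120824931, from intergenic DNA over the 5′ UTR into intron 1, with the printed CCAAT boxes inside it. The 5′ end of the RefSeq gene, chr11:120825166, lay upstream of this region, under no region. It held 1370 and 700 counts, the largest counts of the 8 promoters, and a log2 ratio of −1.10 (−1.24 to −0.97). The level was 2.15-fold lower, from 21.7 to 10.1 RPM per kb. Of all promoter regions, 11.9% had a lower ratio. Among promoter regions of like signal (all were divided by mean signal into 10 classes of equal size) the median was −0.63.

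*Elovl6* lengthens palmitate to stearate. Its promoter region, chr3:129531890-129532621, held 723 and 542 counts, a log2 ratio of −0.55 (−0.71 to −0.39), the smallest difference of the 8, and its interval did not overlap those of *Fasn*, *Thrsp* and *Mlxipl*. A region in intron 2 at 1581 bp had 194 and 131 counts, a log2 ratio of −0.70 (−1.03 to −0.38). The introns carried 16 further regions, closer to unnamed genes, with a median log2 ratio of −0.45. Of these 5 were at least 2-fold lower, where 18.8% of all regions outside promoters were, the lowest at −1.76 (67 and 21 counts). None was at least 2-fold higher, where 15.6% of all were, and the highest was at 0.80 (21 and 41 counts). The strongest, chr3:129591309-129592539, had 799 and 660 counts, a log2 ratio of −0.41 (−0.56 to −0.26).

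*Scd1* introduces the double bond that turns stearate into oleate. Its promoter region, chr19:44407292-44408443, held 330 and 209 counts, a log2 ratio of −0.79 (−1.05 to −0.54), and was the least open of the 8 per length in both libraries, with 5.42 and 3.13 RPM per kb. The 9 regions away from the promoter, upstream and past the end of the gene, moved less, with a median of −0.24. Of these, 0 were at least 2-fold lower, where 18.8% of all regions outside promoters were. The strongest, 18889 bp past the TSS at chr19:44388351-44389289, held 840 and 618 counts, a log2 ratio of −0.58 (−0.73 to −0.43), the lowest of the 9. The second strongest, at −8693 bp, held 303 and 307 counts, a log2 ratio of −0.12 (−0.35 to 0.12), the highest. Summed over its 10 regions, *Scd1* had a log2 ratio of −0.42 (−0.51 to −0.34).

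The order of promoter levels per length changed little between the libraries. In the flox/flox library it ran *Thrsp*, *Fasn*, *Elovl6*, *Mlxipl*, *Srebf1*, *Acly*, *Acacb* and *Scd1*, where the counting intervals of *Thrsp* and *Fasn*, of *Srebf1* and *Acly*, and of *Acly* and *Acacb* overlapped. In the HKO library *Elovl6* stood first, with 12.8 RPM per kb (11.7 to 13.9), ahead of *Thrsp* with 12.1 (10.9 to 13.3) and *Fasn* with 10.1 (9.34 to 10.9), and the other 5 kept their places. The intervals of *Elovl6* and *Thrsp* overlapped, and so did those of *Srebf1*, *Acly* and *Acacb* with each other, so the order within these sets is not resolved. The median promoter region of all genes had 9.40 and 6.10 RPM per kb, so *Scd1* and *Acacb* were below it in both libraries, and *Srebf1* and *Acly* in the HKO library only. However, the HKO intervals of *Srebf1* (5.07 to 6.78) and *Acly* (5.11 to 6.19) contained 6.10. The flox/flox interval of *Acacb* (7.71 to 9.65) contained 9.40.

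Outside the promoters the 33 regions were spread more widely. Their median log2 ratio was −0.58, against −0.27 for all regions outside promoters, and 31 were below 0, where 59.8% of all such regions were. The shares over all such regions in this paragraph include many weak regions, whose ratios were higher, as given below. Against regions of like signal, 21 of the 33 were below the median of their class. The median came to 0.068 when centred on the strongest 10% of promoter regions, and 18 of the 33 were below 0 after scaling to the reads in regions. Of the 33, 8 were at least 2-fold lower, or 24.2%, where 18.8% of all such regions were, and 0 were at least 2-fold higher, where 15.6% were. At 1.5-fold 16 were lower, where 36.5% of all passed. Intervals lay below 0 at 23 regions and above 0 at 1, the *Acacb* intron 1 region. The share of all such regions with an interval below 0 was not computed, so these 2 counts do not set the 33 regions apart. A peak had been called in both libraries at 22, in the flox/flox library only at 10, and in the HKO library only at 1. Over all 69549 regions, promoters and weak regions included, these classes made up 61.7%, 16.8% and 21.5%. The 8 lower regions belonged to *Srebf1*, *Mlxipl*, *Acly*, *Thrsp* and *Acacb*, and none to *Scd1*.

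**Figure D3:**
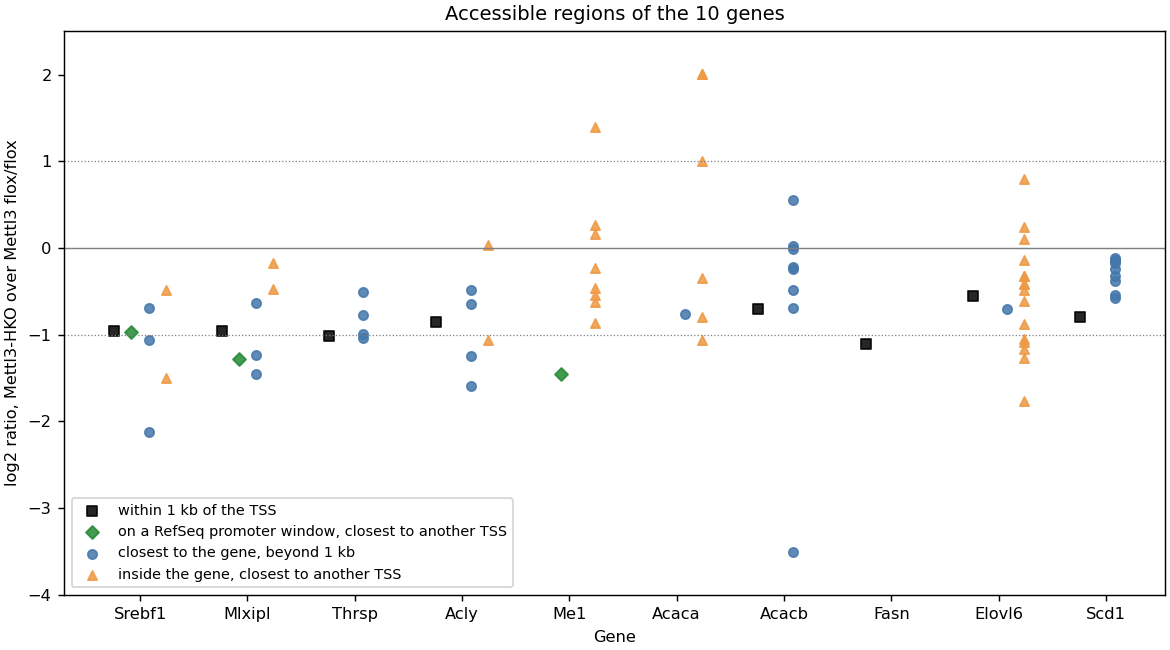
Log2 ratio (HKO over flox/flox) (vertical axis) for regions of the 10 genes (horizontal axis), with marker shapes for the 8 promoter regions, 33 regions closest to the gene but beyond 1 kb, 3 regions over RefSeq starts and the remaining regions inside the genes that were closest to another TSS, and dotted lines at a 2-fold difference. All regions of *Srebf1*, *Mlxipl*, *Thrsp* and *Scd1* lie below 0 on the authors' scale, and the regions above 1 are in introns of *Me1* and *Acaca*. Scaling to the reads in regions would raise every point by 0.51, and some of those regions would then lie above 0.

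Apart from the 3 regions over RefSeq starts, 36 regions inside these genes were closer to another TSS and had a median log2 ratio of −0.44. Of these, 8 were at least 2-fold lower, or 22.2%, where 18.8% of all regions outside promoters were, and 4 were at least 2-fold higher, where 15.6% were. They had peaks in both libraries at 17, in the flox/flox library only at 9 and in the HKO library only at 10. The 4 higher regions, 3 in *Acaca* and 1 in *Me1*, held 9 to 23 counts in the flox/flox library, while the starts of *Me1*, *Mlxipl* and *Srebf1* held 214 to 666.

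Over all promoter regions the median ratio went from 0.15 in the weakest class of signal to −0.65 in class 7 and then stayed between −0.65 and −0.63. For other regions it went from 0.86 in the weakest class to −0.67 in the strongest. The lipogenic promoters lay in classes 5 to 9 of the 10 classes by signal, and 7 of the 8 were below the median of their own class, with *Elovl6* the exception. The intervals of *Acacb*, *Scd1* and *Elovl6* contained the median of their class. Of the 33 other regions, 21 were below the median of their own class.

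**Figure D4:**
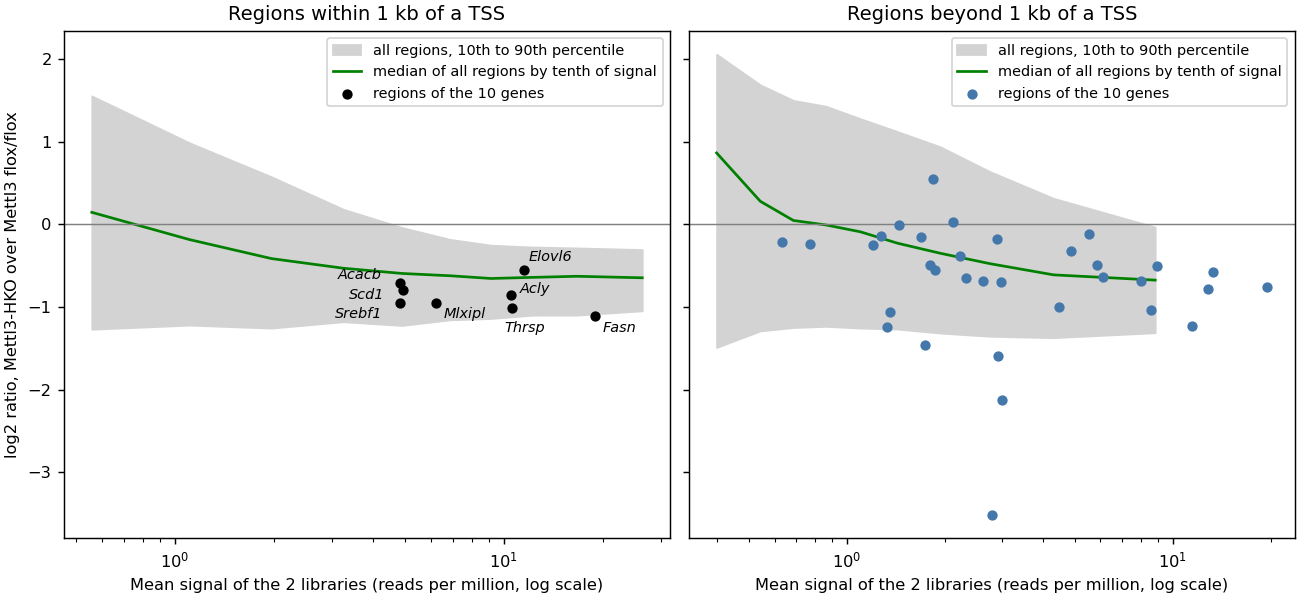
Log2 ratio (HKO over flox/flox) (vertical axis) against mean signal of the libraries in RPM (log scale) for promoter regions (left) and other regions (right). The green line joins the medians of all regions by class of signal, the grey band spans their 10th to 90th percentiles, and 7 of the 8 named promoters sit below the line.

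Genes around the pathway were described by fixed lists, each by the strongest promoter region per gene. Of 51 such genes 48 had a promoter region. Of these 7 were at least 2-fold lower (where 16.3% of all promoter regions were), 1 was at least 2-fold higher (4.07% of all), and the median log2 ratio was −0.62, near the −0.56 of all promoter regions. The acetyl-CoA and NADPH supply list had a median of −0.74 over 7 of 8 genes. Its lowest was *Idh1*, the cytosolic isocitrate dehydrogenase that yields NADPH, with 2098 and 825 counts and a log2 ratio of −1.48 (−1.60 to −1.37), and its highest *Pgls*, of the pentose phosphate pathway, at −0.35. Glycolytic feed had a median of −0.71 over 5 of 6 genes and ran from *Khk*, ketohexokinase, at −0.76 to *Pfkl*, liver phosphofructokinase, at −0.33, with 0 genes past 2-fold. Mitochondrial fatty acid synthesis, a separate route that makes the lipoic acid precursor, had a median of −0.92 over 3 of 4 genes, from *Ndufab1*, the acyl carrier protein, at −1.06 to *Mecr*, the enoyl reductase, at −0.26.

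The elongation and desaturation list, without *Elovl6* and *Scd1*, had a promoter region for 10 of 10 genes and a median of −0.60. Of these 3 were at least 2-fold lower, where 16.3% of all promoter regions were, and 1 was at least 2-fold higher, where 4.07% were. *Elovl2*, which acts on polyunsaturated fatty acids, was lowest, with 591 and 229 counts and a log2 ratio of −1.50 (−1.73 to −1.28). *Scd2*, the desaturase paralogue of *Scd1* on the same chromosome, was highest, with 22 and 67 counts and a log2 ratio of 1.43 (0.76 to 2.24), opposite in direction to *Scd1*. The *Scd2* region was weak, at 0.435 and 1.17 RPM.

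Among regulators, SREBP processing had a median of −0.48 over 6 of 6 genes. It ran from *Scap*, the escort protein of SREBPs, at −0.97 to *Insig2*, which retains that escort in the endoplasmic reticulum, at 0.028 (−0.075 to 0.13), with 1439 and 1612 counts. The lipogenic transcription factors and partners had a median of −0.60 over 12 of 12 genes, and 2 were at least 2-fold lower, a share near the 16.3% of all promoter regions. These were *Ppargc1b*, a coactivator of SREBP, at −1.39 (565 and 237 counts) and *Mlx*, the dimer partner of ChREBP, at −1.37 (286 and 121 counts), and the highest was *Usf2*, an E-box factor, at −0.27. The AMPK list, kinase subunits that inhibit the carboxylases and their activator *Stk11*, had a median of −0.49 over 5 of 5 genes, from *Prkaa2* at −0.95 to *Prkab1* at −0.11, and 0 past 2-fold.

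**Figure D5:**
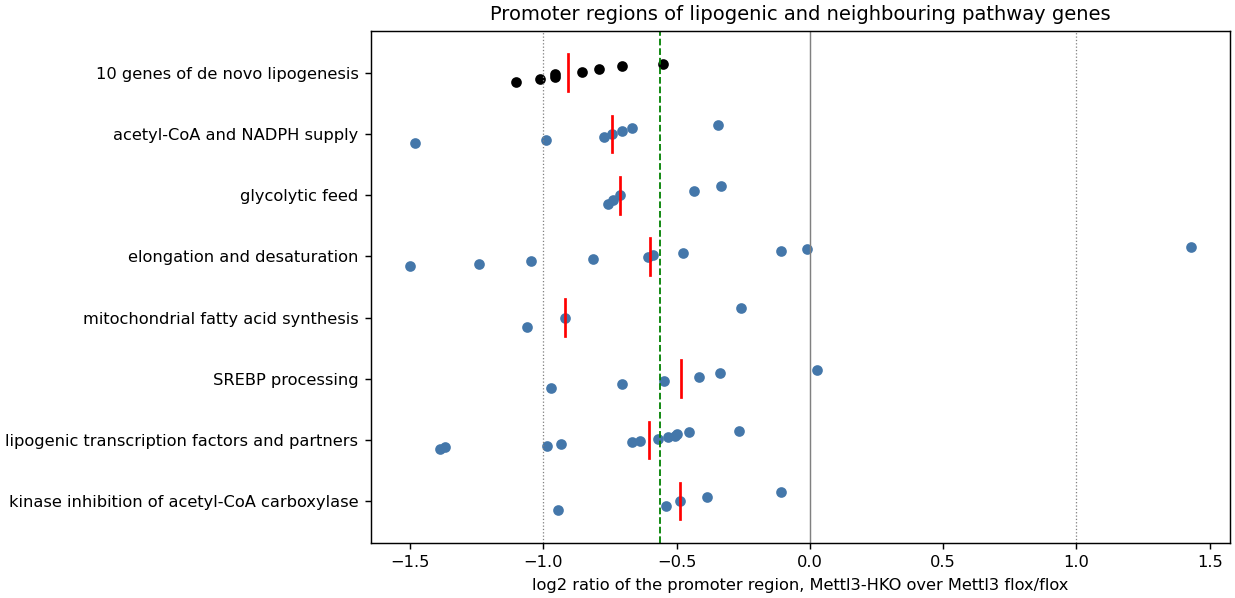
Log2 ratio of the promoter region (HKO over flox/flox) (horizontal axis) for the 8 lipogenic genes with a promoter region (black) and 7 lists of neighbouring pathway genes (blue), with 1 point per gene, red bars at list medians, a dashed line at the median of all promoter regions and dotted lines at a 2-fold difference. The lipogenic genes span −1.10 to −0.55, the other lists reach from *Elovl2* at −1.50 to *Scd2* at 1.43, and centring on the dashed line puts *Elovl6* above 0.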

How the data were processed

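ATAC-seq of mouse liver was analysed for 1 library of *Mettl3* flox/flox and 1 of *Mettl3*-HKO mice, grouped by the labels and each pooled from 4 mice. The authors trimmed adaptors with skewer, aligned reads with BWA to GRCm38, kept properly paired, non-mitochondrial reads above a mapping quality limit and called MACS2 peaks per library with duplicates kept. How reads were counted on merged regions, and whether ends were shifted for the Tn5 cut, are not given in the sources used here. The deposited table holds raw counts per region, RPM made by the authors as the count plus 1 scaled to a library total, and a mark for a peak in each library. The fold enrichment and log2 ratio columns of the authors were not used.

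Library totals of 52826202 and 58038305 were recovered from the RPM values, with a largest relative error of 4.96e-06. The median region held 85 and 81 counts, which sets the precision of a typical ratio. Of 74821 rows, 5272 repeats were dropped, and 1 base was added to starts. Log2 ratios used counts plus 1 over the totals. Levels were RPM per kb, without the added read, with exact Poisson intervals. Ratio intervals were Clopper-Pearson intervals of the *Mettl3*-HKO share of counts at 95%. Whether the counts hold duplicate reads is not given, and such reads would make these intervals too narrow. No test between groups was possible with 1 library each, and a difference of at least 2-fold was counted instead. A region counted as a promoter region when its centre lay within 1000 bp of the TSS. Genes were named by rule: every promoter region of the 10 genes, of the other regions of a gene the 2 strongest, the highest and the lowest, and from each list the highest and lowest gene. Regions beyond these, *Mlx*, and the regions at RefSeq starts and 5′ ends were chosen after their values were seen.

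The members, lists and markers were chosen with earlier results of these data known. Promoter sequences were RefSeq windows on GRCm38.p6, matched by symbol. Alternatives varied how counts were scaled, reads added, window, fold, signal filter and region assignment. The scripts, in Python 3.11.15 (scipy 1.17.1, matplotlib 3.10.9, pandas 2.3.3, numpy 2.4.6), were tested on simulated data.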

Additional observations from a re-analysis of the deposited data

How the results depend on the processing

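The median log2 ratio of the 8 promoter regions, −0.91, kept its sign but moved to −0.53 when centred on all regions, −0.34 on all promoter regions, −0.26 on the strongest 10% of these and −0.39 when scaled to the reads in regions. Of these promoters 2 were at least 2-fold lower, and the number was 0 under each of these 4 scalings, 1 with 10 reads added and 7 at 1.5-fold, which 47.8% of all promoter regions pass. A 2000 bp window took in 4 further regions, and 5 of the then 12 promoter regions were at least 2-fold lower, 3 of them newly included. The share of all regions past 2-fold with that window was not computed, so these counts have no background. The median of the 33 other regions, −0.58, moved under the same scalings, in that order, to −0.20, −0.014, 0.068 and −0.066, to −0.50 with a 2000 bp window, −0.64 for the upper 50% by signal and −0.50 with the regions inside the genes and over their RefSeq starts added. Their 8 lower regions became 4, 3, 2 and 3 under the scalings, 5 with a 2000 bp window, 16 at 1.5-fold (36.5% of all such regions) and 18 with those regions added. Shares of all regions past 2-fold under the 4 scalings were not computed, for promoters or for other regions. The count of higher regions went from 0 to 1 under the last 3 scalings and to 4 with those regions added. The scaling alternatives shift every ratio by a constant, so differences between regions do not change. Of the 41 regions 39 were below 0, and 30, 24, 22 and 26 under the 4 scalings, and no region past 2-fold changed direction. Adding these regions, and the RefSeq promoter windows, was chosen after seeing the data. No paired analysis was possible because each group has 1 library, and leaving out a replicate was not possible for the same reason. Regions of these genes under 30 counts in either library had intervals wider than a 2-fold range.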
